A study of Mus musculus with 20 samples.

Results

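Interferon-response genes are transcribed when a cell receives an interferon signal. In the cerebellum of 304Q/304Q and WT/WT mice, 9 of them were followed, out of 29200 genes in the count table. The genes were chosen by symbol, with earlier results of these data known. They are the transcription factors Stat2, Irf9 and Irf7, and their targets Ifit1, Ifit3, Oasl2, Isg15, Ifitm3 and Bst2. Each of the 9 symbols belonged to 1 Ensembl gene with a row in the table, and every one is protein coding. The mice were C57BL6/N males that carried either 2 unmodified Atxn3 alleles (WT/WT) or 2 knock-in Atxn3 alleles coding for 304 glutamines (304Q/304Q), a model of spinocerebellar ataxia type 3 that descends from a single founder line made with zinc-finger nucleases, carries a repeat interrupted by CAA codons and expresses the expanded protein from the mouse's own gene in all cells that use it. The sample labels name ataxin-2 for the unmodified alleles of the WT/WT mice, where the study describes ataxin-3, and the study's description is used here. No treatment was named for any group. Groups of 5 mice of each genotype were sampled at 2 and at 12 months, and polyA RNA of the whole cerebellum was sequenced, 1 library per mouse. The comparisons ask how far these genes differ with the repeat at each age, how they differ between the ages in each genotype, and whether the 2 age differences are alike.

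Type I interferons bind a receptor formed by Ifnar1 and Ifnar2, whose kinases Jak1 and Tyk2 phosphorylate STAT transcription factors such as Stat2. With Irf9 these form a complex that binds the interferon-stimulated response element, a promoter sequence shared by many interferon targets. Irf7 is itself such a target and drives further interferon transcription, and in the brain microglia, astrocytes, vessel cells and neurons can all carry out this response.

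The core of the response element, GAAANNGAAA with N for any base, was searched on both strands in the promoter windows of RefSeq (250 bases before to 50 after the start, build GRCm38.p6). All 9 genes had a window there. At least 1 match was found in 6 of the 9, against 3.45% of 9441 tested genes with a window and 43.8% of 64 other type I interferon targets. The windows of Irf7, Irf9 and Oasl2 held none of these letters in this order. Stretches around the matches follow on the strand of the gene, because they are the sequence that these targets share, with the matched letters in capitals. In Stat2, Ifit1 and Ifit3 the motif lies on the other strand and appears as its reverse complement.

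Isg15, chr4:156200855-156200916, minus strand: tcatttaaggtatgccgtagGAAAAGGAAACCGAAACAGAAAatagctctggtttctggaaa
Ifit1, chr19:34640765-34640833, plus strand: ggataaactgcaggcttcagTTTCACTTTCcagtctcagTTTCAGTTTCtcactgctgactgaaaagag
Ifit3, chr19:34583353-34583436, plus strand: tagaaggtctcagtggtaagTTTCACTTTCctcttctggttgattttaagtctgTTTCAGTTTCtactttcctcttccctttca
Bst2, chr8:71537567-71537622, minus strand: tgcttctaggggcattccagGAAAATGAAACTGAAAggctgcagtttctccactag
Stat2, chr10:128270256-128270305, plus strand: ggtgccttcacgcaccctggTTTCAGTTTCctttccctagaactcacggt
Ifitm3, chr7:141010716-141010742, minus strand: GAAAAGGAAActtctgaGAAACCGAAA

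Isg15 held 3 matches that overlap each other, Ifit1, Ifit3, Ifitm3 and Bst2 held 2 and Stat2 held 1. In Ifit1, Ifit3, Isg15 and Bst2 the first base of every match lay between 156 and 66 bases before the start, in Stat2 222 bases before it, and in Ifitm3 at bases 3 and 20 after it. These positions count from the RefSeq start, which for all but Isg15 of these 6 genes is not the end of the GENCODE gene whose coordinates are given with its values. A match is a sequence of letters and was not tested for binding of any factor.

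The libraries held 11385380 to 27636687 counts. Normalised counts are raw counts brought to a common library size (the mean of all), and the tests are edgeR's quasi-likelihood tests with Benjamini-Hochberg adjustment over 12153 genes that averaged 50 counts or more, in which an adjusted p of at most 0.05 passed. Bst2 and Isg15 had means of 35.7 and 17.5 counts and were tested in a wider fit with a limit of 10 counts, over 15194 genes. Irf7 and Ifit1 had means of 44.8 and 47.7 normalised counts in WT/WT mice of 2 months, and Ifit1 one of 42.7 in 304Q/304Q mice of that age. Both genes reached the limit of 50 counts through other groups, so that counts over the 9 genes are given in the wider fit, in which all 9 were tested. In these bulk libraries fewer cells of a type and less RNA per cell cannot be told apart. In 6 of the 20 libraries (304Q/304Q replicate 3 at 2 months, WT/WT replicates 1, 2 and 5 and 304Q/304Q replicates 1 and 3 at 12 months) 6 markers of choroid plexus, a tissue next to the cerebellum, summed to between 5763 and 29917 normalised counts, against 177 to 433 in the other 14, so the counts of genes that rose are also given without these 6 libraries. Granule and Purkinje cell markers of the cerebellum were high in all groups, with mean sums of 75680 or more and 72420 or more normalised counts, and their differences with age are given with those of microglia.

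Most of the interferon-response genes were higher at 12 than at 2 months in both genotypes. In WT/WT mice 7 of the 9 genes rose with age (Irf7, Ifit1, Oasl2, Ifit3, Bst2, Ifitm3 and Irf9), by 1.43-fold for Irf9 to 2.87-fold for Irf7, where 4.63% of the 15194 genes in this fit rose. In 304Q/304Q mice 6 of the 9 rose (the same genes without Irf9), by 1.55-fold for Ifitm3 to 3.51-fold for Bst2, where 2.84% of all genes rose. Because the 9 were chosen with earlier results of these data known, these counts describe them and are no test of the set. Folds and log2 differences of single genes are those of the narrower fit, or of the wider one for Bst2 and Isg15. No gene of the 9 passed in the comparison of the genotypes at 2 or at 12 months, or in the interaction of genotype and age. Leaving out the 6 libraries rich in choroid plexus markers left 2 WT/WT and 3 304Q/304Q mice of 12 months. In that fit 6 of the 9 rose in WT/WT mice (not Irf9) and 6 in 304Q/304Q mice (Irf9, not Ifitm3). None passed between the genotypes at either age, which at 12 months so few mice can hardly test. The share of all genes that rose in that fit is not given here.

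In the narrower fit, 6 of the 7 genes tested rose in WT/WT mice (6.08% of the 12153 genes did) and 5 of 7 in 304Q/304Q mice (3.08%). All of these had a log2 fold change of at least 0.5, which with an adjusted p of at most 0.05 made a gene a DEG, as did 1.4% of genes in WT/WT mice and 1.37% in 304Q/304Q mice. The counts of the narrower fit include Irf7 and Ifit1, which reached its limit through groups in which they were high. They therefore add no support to the counts of the wider fit. Over all 9 genes the median log2 difference between the ages was 1.31 in WT/WT mice and 1.07 in 304Q/304Q ones, against −0.00117 and −0.00327 over all genes. In 5 genes of the 9 (Irf7, Irf9, Ifit1, Ifit3 and Ifitm3) every WT/WT mouse of 12 months lay above every WT/WT mouse of 2 months, which 3.64% of the tested genes did. In 304Q/304Q mice this held for 5 genes as well (Irf7, Ifit1, Ifit3, Ifitm3 and Bst2), and for 3.6% of the tested genes. Both of these shares are over the 12153 genes of the narrower fit, which leaves out Bst2 and Isg15.

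**Figure D1:**
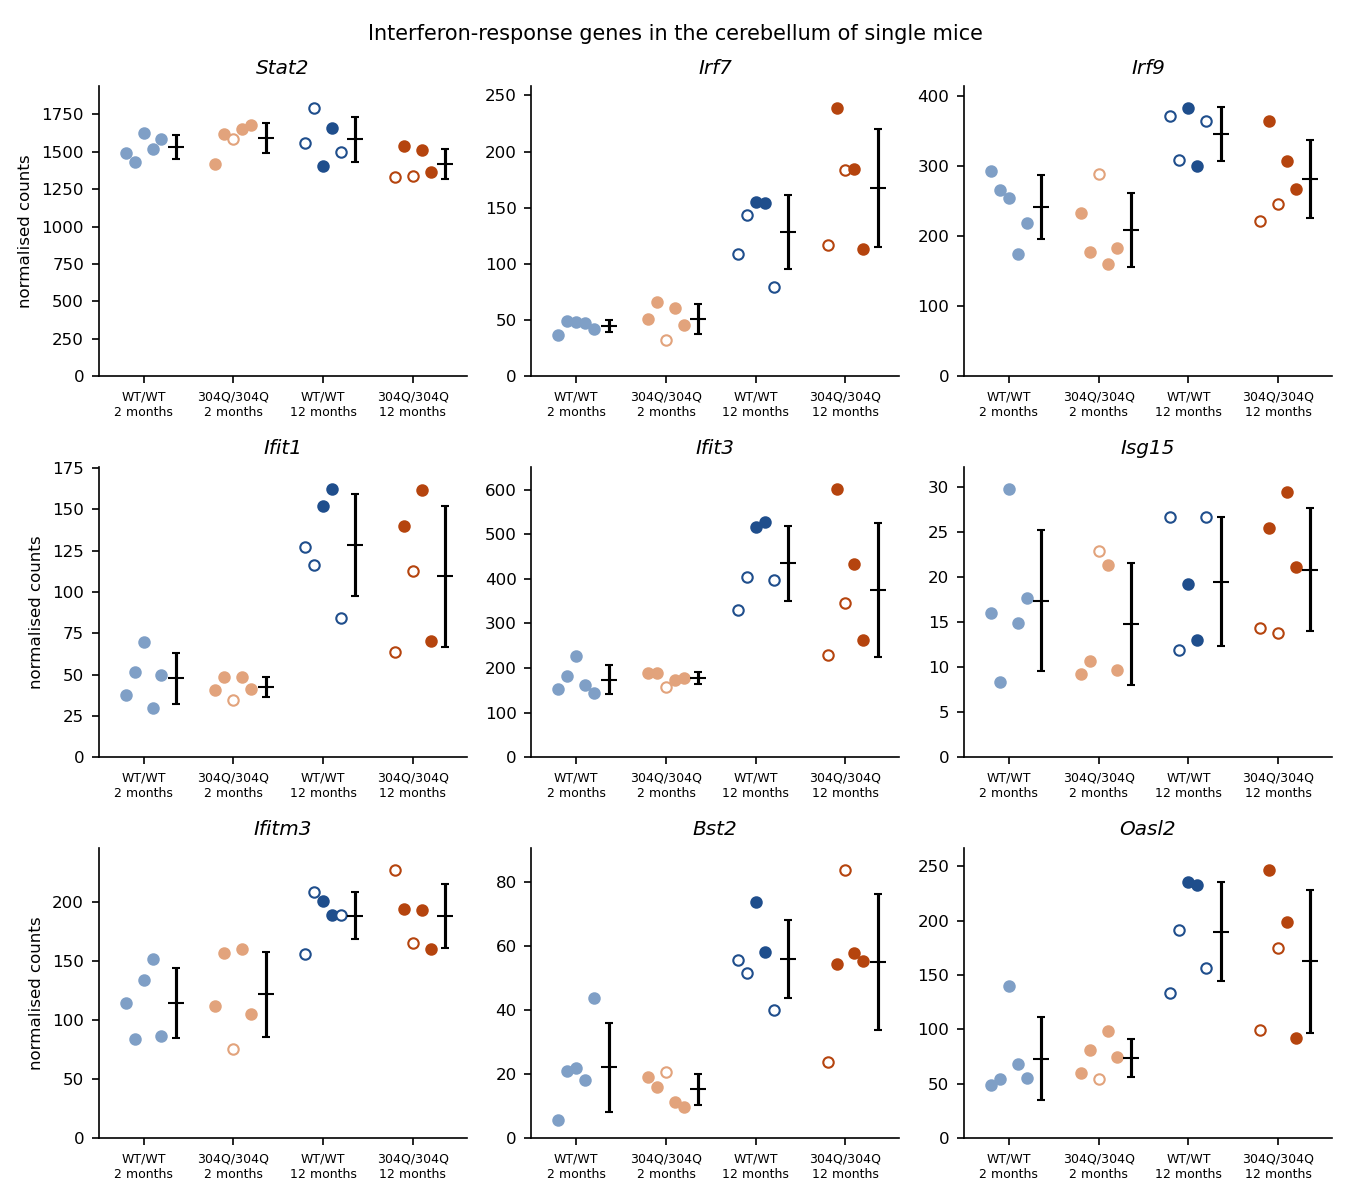
Normalised counts (y axis, from 0) of the 9 genes in each mouse, by genotype and age (x axis). Points are single mice, open points the 6 libraries with over 1000 normalised counts of choroid plexus markers, and black bars the mean ± SD of 5 mice. All genes but Stat2 have higher means in both groups of 12 months than in both groups of 2 months, though all groups of Isg15 overlap. Stat2 stays between 1330 and 1796 in all mice.

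Among the factors, Stat2 (ENSMUSG00000040033, chromosome 10 of GRCm38 from 128270559 to 128292849), the STAT protein specific to interferon signalling, was the one that did not rise in either genotype. Its normalised counts at 2 months were 1491, 1432, 1627, 1522 and 1586 in WT/WT mice and 1421, 1616, 1587, 1651 and 1678 in 304Q/304Q mice. At 12 months they were 1559, 1796, 1404, 1656 and 1502 in WT/WT mice and 1330, 1541, 1340, 1512 and 1368 in 304Q/304Q mice. All 4 groups overlapped. The log2 difference between the ages was 0.05 in WT/WT mice (95% interval −0.09 to 0.18, adjusted p = 0.672) and −0.16 in 304Q/304Q mice (−0.30 to −0.03, adjusted p = 0.147), both by edgeR. Stat2 was also the gene of the 9 nearest to a genotype difference at 12 months, with a log2 difference of −0.16 between 304Q/304Q and WT/WT (−0.29 to −0.02, unadjusted p = 0.023, adjusted p = 0.115 by edgeR).

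Irf9 (ENSMUSG00000002325, chromosome 14 from 55603571 to 55610030), the DNA-binding partner of Stat2, had 293, 266, 255, 175 and 219 normalised counts in WT/WT mice of 2 months and 372, 308, 384, 299.9 and 364 in those of 12 months. The 304Q/304Q mice had 234, 178, 289, 160.4 and 183 at 2 months and 222, 364, 246, 307 and 268 at 12 months. The WT/WT groups did not overlap, and in 304Q/304Q mice the second highest value of 2 months lay above the lowest of 12 months. Irf9 rose by 0.52 log2 units in WT/WT mice (adjusted p = 0.0335, edgeR), and in 304Q/304Q mice its difference was 0.43 (0.10 to 0.75, adjusted p = 0.11, edgeR). The WT/WT call was lost without any 1 of the 2-month replicates 3, 4 and 5 or the 12-month replicates 3 and 5 (in the wider fit also without 2-month replicate 2), and the gene passed in 304Q/304Q mice without 2-month replicate 3, a choroid-rich library (0.56, adjusted p = 0.0266 by edgeR). Irf9 shares 123 exon bases with Rnf31 on the same strand, 0.411% of its windows of 100 transcript bases.

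Irf7 (ENSMUSG00000025498, chromosome 7 from 141262706 to 141266481), the amplifier of the response, rose most among the factors. At 2 months the WT/WT mice had 36.6, 49.2, 48.2, 47.8 and 42.0 normalised counts and the 304Q/304Q mice 51.4, 66.5, 32.3, 60.9 and 45.8. At 12 months the values were 109, 144, 155, 154.5 and 79.9 in WT/WT mice and 117, 239, 184, 184 and 113 in 304Q/304Q mice. The lowest mouse of 12 months in either genotype lay above the highest of 2 months in either. Irf7 rose by 1.52 log2 units in WT/WT mice (1.05 to 1.99, adjusted p = 0.000158) and by 1.70 in 304Q/304Q ones (1.25 to 2.16, adjusted p = 1.54e-05), both by edgeR. It shares 45 exon bases with Phrf1 on the opposite strand, and whether the counting used the strand is not given in the sources used here.

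Of the targets, Ifit1, whose protein binds foreign RNA and holds back its translation, and Ifit3, of the same family, both lie on chromosome 19. Ifit1 (ENSMUSG00000034459, from 34640871 to 34650009) had 37.7, 51.3, 70.0, 29.8 and 49.5 normalised counts in WT/WT mice of 2 months and 127, 116, 152, 162 and 84.4 in those of 12 months. It went from 40.6, 48.3, 34.4, 48.7 and 41.4 to 63.8, 139.6, 112, 161 and 70.3 in 304Q/304Q mice. The ages did not overlap in either genotype, but 304Q/304Q replicates 1 and 5 of 12 months lay close to the younger mice. Ifit1 rose by 1.43 log2 units (0.91 to 1.95, adjusted p = 0.00087) in WT/WT mice and by 1.36 (0.84 to 1.88, adjusted p = 0.000842) in 304Q/304Q ones (edgeR). It shares 3.29% of its transcript windows of 100 bases with Ifit1bl2.

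Ifit3 (ENSMUSG00000074896, from 34583531 to 34588731) had 153, 182, 227, 162 and 145 normalised counts in WT/WT mice of 2 months and 329.7, 404, 515, 528 and 396 in those of 12 months. The values in 304Q/304Q mice were 190.0, 189, 157, 173 and 177 at 2 months and 229.5, 603, 345, 434 and 263 at 12 months. Again the ages did not overlap, and 304Q/304Q replicates 1 and 5 were the lowest of 12 months. The rises were 1.33 log2 units (0.92 to 1.73, adjusted p = 0.000137) in WT/WT and 1.08 (0.67 to 1.48, adjusted p = 0.000666) in 304Q/304Q mice by edgeR. Of the transcript windows of Ifit3, 31.7% are also found in its close copy Ifit3b, so that the counts of the pair are uncertain against each other.

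Oasl2 (ENSMUSG00000029561, chromosome 5 from 114896936 to 114912234), related to the oligoadenylate synthetases that sense double-stranded RNA, had 49.1, 54.5, 140.0, 68.0 and 55.1 normalised counts in WT/WT mice of 2 months and 134, 191, 235, 233 and 156 in those of 12 months. Oasl2 had 59.6, 81.6, 54.1, 98.5 and 74.9 at 2 months and 99.8, 247, 175, 198 and 92.4 at 12 months in 304Q/304Q mice. The ages overlapped in both genotypes, in WT/WT mice through replicate 3 of 2 months and in 304Q/304Q mice through replicate 5 of 12 months. Oasl2 rose by 1.38 log2 units in WT/WT mice (0.80 to 1.96, adjusted p = 0.0032) and by 1.15 in 304Q/304Q ones (0.57 to 1.72, adjusted p = 0.011), both by edgeR. In the wider fit the latter call was lost without 12-month replicate 2 (adjusted p = 0.0506 by edgeR), and in the narrower fit without the 6 choroid-rich libraries (1.20, adjusted p = 0.05003 by edgeR).

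Ifitm3 and Bst2 code for membrane proteins that block virus entry and virus release. Ifitm3 (ENSMUSG00000025492, chromosome 7 from 141009586 to 141010770) had 114, 83.8, 134, 152 and 86.8 normalised counts in WT/WT mice of 2 months and 156, 208, 201, 189 and 189 in those of 12 months. The values in 304Q/304Q mice were 112, 157, 76.0, 160.4 and 105 at 2 months and 227.5, 194, 165, 193 and 160.6 at 12 months. The ages did not overlap, but in 304Q/304Q mice the highest mouse of 2 months and the lowest of 12 months lay next to each other. The rises were smaller than those of the Ifit genes, 0.73 log2 units (0.35 to 1.10, adjusted p = 0.0123) in WT/WT and 0.63 (0.26 to 1.001, adjusted p = 0.0307) in 304Q/304Q mice by edgeR. The 304Q/304Q call was lost without any 1 of the 2-month replicates 1, 3 and 5 or the 12-month replicates 1, 2 and 4, and without the 6 choroid-rich libraries (0.46, adjusted p = 0.301 by edgeR).

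Bst2 (ENSMUSG00000046718, chromosome 8 from 71534255 to 71537456) was a low gene with 5 to 69 raw counts per library. Its normalised counts in WT/WT mice were 5.71, 20.9, 21.8, 18.1 and 43.9 at 2 months and 55.7, 51.5, 73.8, 58.2 and 39.97 at 12 months. The 304Q/304Q mice had 19.0, 16.1, 20.8, 11.2 and 9.70 at 2 months and 23.7, 54.3, 83.8, 57.8 and 55.2 at 12 months. Only WT/WT replicate 5 of 2 months overlapped the older mice of its genotype. Bst2 rose by 1.31 log2 units in WT/WT mice (0.58 to 2.04, adjusted p = 0.0217) and by 1.81 in 304Q/304Q ones (1.06 to 2.56, adjusted p = 0.00203), both by edgeR in the wider fit. The WT/WT call was lost without any 1 of the 2-month replicates 1 and 2 and the 12-month replicate 3 (adjusted p up to 0.0704 by edgeR).

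Isg15 (ENSMUSG00000035692, chromosome 4 from 156199424 to 156200818), a ubiquitin-like protein that is attached to other proteins, had only 8 to 27 raw counts per library. The WT/WT mice had 16.0, 8.38, 29.8, 14.9 and 17.7 normalised counts at 2 months and 26.7, 11.9, 19.2, 13.0 and 26.6 at 12 months. The 304Q/304Q mice had 9.24, 10.7, 22.9, 21.3 and 9.70 at 2 months and 14.4, 25.5, 13.8, 29.4 and 21.1 at 12 months. All groups overlapped. The log2 difference between the ages was 0.16 in WT/WT mice (−0.60 to 0.92, adjusted p = 0.837) and 0.52 in 304Q/304Q mice (−0.23 to 1.28, adjusted p = 0.512) by edgeR, and at this depth a rise like that of Ifitm3 lies inside both intervals.

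**Figure D2:**
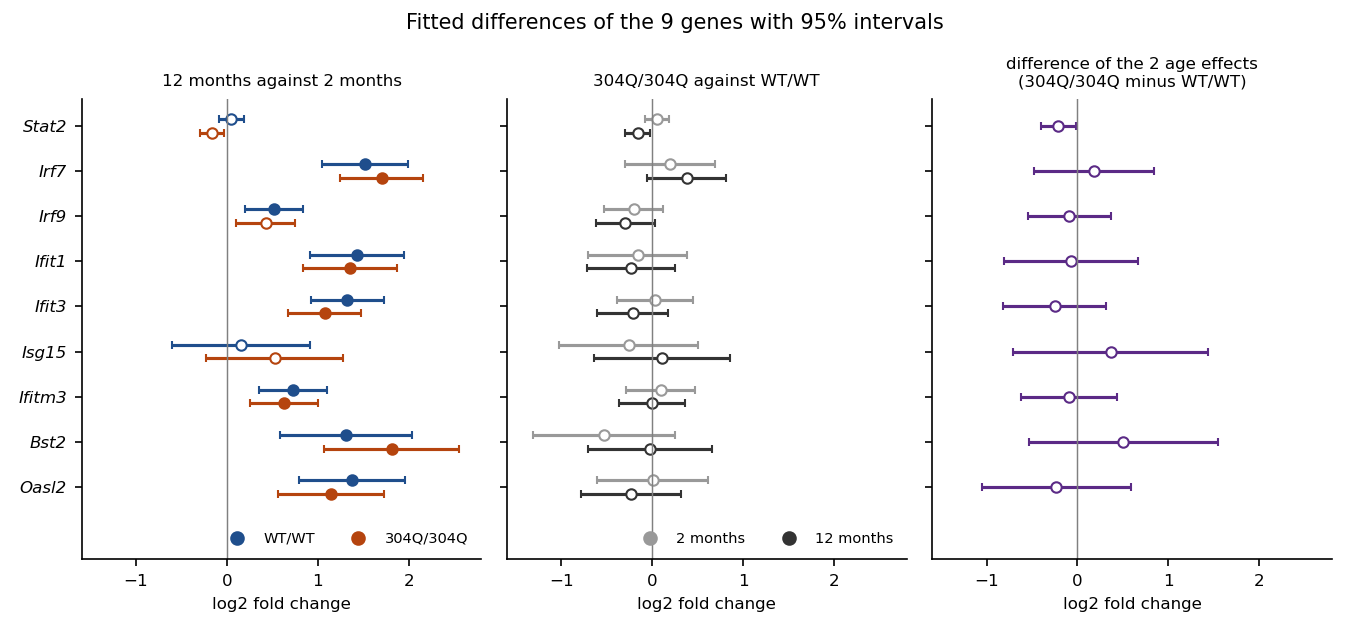
Fitted log2 differences (x axis) of the 9 genes (y axis) between the ages, between the genotypes and for the interaction, with 95% intervals from edgeR. Filled points passed an adjusted p of 0.05. Points pass in the age panel alone, 7 in WT/WT mice and 6 in 304Q/304Q ones, and in the other 2 panels all points are open.

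On the scale of CPM per kilobase of exon, which allows genes to be compared, Stat2 stood highest in WT/WT mice of 2 months at 17.8 ± 1.08 (SD, n = 5), followed by Ifitm3 at 11.6 ± 3.04 and Ifit3 at 6.87 ± 1.27. The lowest mouse for Stat2 (16.6) lay above the highest for Ifitm3 (15.7), whereas the ranges of Ifitm3 and Ifit3 met between 8.48 and 8.94. Irf9 (3.09 ± 0.531) came next, below all values of Ifit3. Bst2 (1.70 ± 1.09), Isg15 (1.59 ± 0.71), Ifit1 (1.24 ± 0.396), Irf7 (0.819 ± 0.104) and Oasl2 (0.794 ± 0.407) followed, and in this order each overlapped its neighbour in the range over mice, Irf9 and Bst2 included. At 12 months the levels of Ifitm3 (19.5 ± 2.30), Stat2 (18.7 ± 1.84) and Ifit3 (17.5 ± 3.58) overlapped in WT/WT mice. In 304Q/304Q mice of 12 months they were 19.6 ± 2.82, 16.9 ± 1.07 and 15.1 ± 5.96. Ifit3 thus lay below Stat2 in every WT/WT mouse of 2 months (highest 8.94) and overlapped it at 12 months (12.9 to 21.4). Irf7, at 2.39 ± 0.628 in WT/WT mice and 3.13 ± 0.964 in 304Q/304Q mice of 12 months, was below Irf9 in mean in both groups (4.50 ± 0.479 and 3.69 ± 0.713).

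Between the genotypes, none of the 9 genes passed at 2 months, when 0.0494% of the 12153 genes tested did (either direction). The fitted log2 differences ran from −0.53 for Bst2 to 0.20 for Irf7, and none of the 9 had an unadjusted p under 0.05. At 12 months again 0 of the 9 passed in edgeR, where 12.5% of the 12153 genes of the narrower fit did. Of the 9, 1 (Stat2) had an unadjusted p under 0.05, as had 3321 of the 12153 genes. The intervals given here hold for this model alone. With the 3 surrogate variables described below, the fitted values of Ifit1, Oasl2 and Ifit3 lay below them. Irf7 had a log2 difference of 0.38 (−0.05 to 0.81, adjusted p = 0.246 by edgeR), whereas Irf9 (−0.29, interval −0.61 to 0.03), Ifit1 (−0.23, −0.72 to 0.25), Oasl2 (−0.23, −0.78 to 0.32) and Ifit3 (−0.22, −0.60 to 0.17) had negative fitted values and that of Ifitm3 was −0.00 (−0.37 to 0.36). The groups of 12 months overlapped for each of the 9 genes. Among cell type markers, 4 of 5 of Purkinje cells, 4 of 8 of myelinating oligodendrocytes and 4 of 5 of blood were lower in 304Q/304Q mice in the same comparison. Lower too were Aldh1l1 (−0.52) and Gdf10 (−0.66) of astrocytes and Bergmann glia, Acta2 (−0.58) of mural cells and, in the wider fit, Cd163 (−1.23) of border macrophages. Higher were C1qa (0.33) and, in the wider fit, Fcrls (0.94) of microglia. The part of these cell types in the values of the 9 genes was not tested.

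With 3 surrogate variables in the model, which estimate unlabelled differences between libraries and are part of the study's own design, this comparison changed. In edgeR 4 of the 7 genes tested were then lower in 304Q/304Q mice at 12 months, where 5.96% of all genes were. These were Oasl2 (−0.93, adjusted p = 0.0228), Ifit1 (−0.89, adjusted p = 0.0211), Ifit3 (−0.69, adjusted p = 0.0175) and Stat2 (−0.26, adjusted p = 0.0208). In DESeq2 with the same variables 2 were lower, Ifit1 (−0.88, adjusted p = 0.00897) and Stat2 (−0.25, adjusted p = 0.0169), where 6.04% of all genes were, and Ifit3 and Oasl2 had adjusted p-values of 0.064 and 0.0646. The DESeq2 Wald test without these variables called none of them. The same variables left the rise with age in 304Q/304Q mice in place, with Irf9 added to the genes that rose and Stat2 called lower by 0.20 log2 units (adjusted p = 0.0227 by edgeR).

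The interaction test asked whether the rise with age differed between the genotypes. None of the 9 passed, where 1.95% of the 12153 genes of the narrower fit did. Of the 9, 1 (Stat2) had an unadjusted p under 0.05, as had 1934 of the 12153 genes. The interaction of Stat2 was −0.21 (−0.40 to −0.02, adjusted p = 0.267 by edgeR). For Ifit3 the interaction was −0.25 (−0.82 to 0.32), for Oasl2 −0.24 (−1.06 to 0.58), for Ifit1 −0.07 (−0.81 to 0.66) and for Irf7 0.18 (−0.48 to 0.84). Each of the intervals of these 4 genes included 0. With the 3 surrogate variables the interactions of the targets were larger, at −0.71 for Ifit1, −0.70 for Ifit3 and −0.82 for Oasl2 in edgeR (adjusted p = 0.329, 0.149 and 0.266) and at −0.70, −0.69 and −0.82 in DESeq2, and none of the 7 genes tested passed in either.

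The 9 genes did not move as 1 block from mouse to mouse. After the mean of each group was taken off, log2 CPM of Ifit3 and Oasl2 had a Pearson's r of 0.84 over the 20 libraries, and all 6 pairs among Irf7, Ifit1, Ifit3 and Oasl2 lay between 0.74 and 0.84. These values describe libraries that share a tissue and a preparation and carry no test. Irf9 and Ifitm3 had an r of −0.55, Ifitm3 and Bst2 one of −0.39, and Stat2 had an r of at most 0.48 with any of the others. In 304Q/304Q mice of 12 months, replicates 2, 3 and 4 were high and replicates 1 and 5 low in each of Irf7, Ifit1, Ifit3 and Oasl2. In WT/WT mice of that age replicates 3 and 4, which were not rich in choroid plexus markers, were the highest for Irf7, Ifit1, Ifit3 and Oasl2. Choroid-rich libraries were found on both sides in 304Q/304Q mice, replicate 1 among the low and replicate 3 among the high. The part of choroid plexus RNA in this pattern was not tested.

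**Figure D3:**
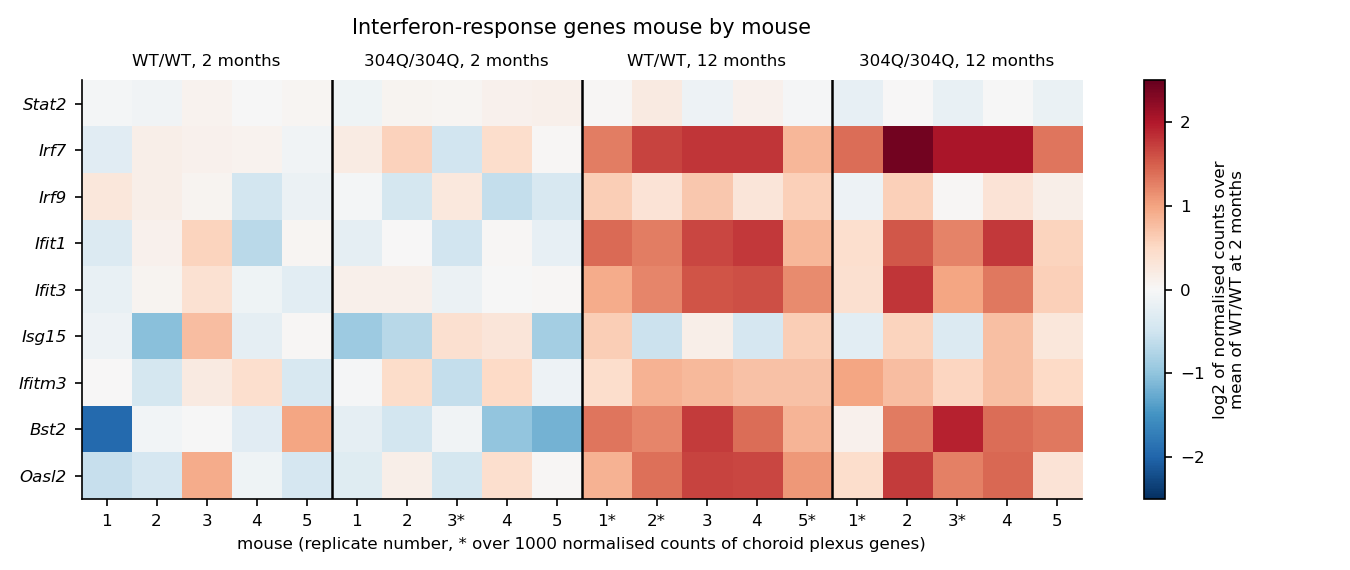
Log2 of the normalised count of each of the 9 genes (rows) in each of the 20 mice (columns) over the average of WT/WT at 2 months, with red for higher and blue for lower. Stars mark libraries with over 1000 normalised counts of choroid plexus markers. The red columns are those of 12 months, with 304Q/304Q replicates 1 and 5 paler than replicates 2, 3 and 4 for Irf7, Ifit1, Ifit3 and Oasl2.

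Of the other genes tested, the one most like the mean of the tested members over the 20 libraries, again within groups, was Ifit3b (r = 0.78), which shares transcript sequence with Ifit3. Vsig10 (r = 0.73), Nudt18 (0.72), Zfp984 (0.71), A530017D24Rik (0.71), Lrrc61 and Rnf213 (both 0.70), Lgals3bp (0.70), Chst12 and A930004D18Rik (both 0.69) came next. Rnf213 and Lgals3bp are interferon targets and were on the list of such genes. By single genes, the nearest were Tnfsf10 for Stat2 (r = 0.79), Nudt18 for Irf7 (0.82), Gjb6 for Irf9 (0.82), Ifit3b for Ifit1 (0.80), Rnf213 for Ifit3 (0.83), Otulinl for Ifitm3 (0.79) and Ube2e2 for Oasl2 (0.78). With 20 libraries and 12153 genes, values of this size are a description only.

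The genes that carry the signal to these targets came next. Of 21 interferon ligand genes on the list, Ifnab and Ifnz had a row, with 2 and 3 counts in all 20 libraries together, and the other 19 were not analysed here. The receptor chains Ifnar1 and Ifnar2 had 701.5 ± 43.4 and 214 ± 28.9 normalised counts in WT/WT mice of 2 months and 668 ± 48.8 and 229 ± 35.7 at 12 months (SD, n = 5). Of 8 receptor and kinase genes tested, 0 passed in any comparison by edgeR's quasi-likelihood test with adjustment, and 1 had an unadjusted p under 0.05 with age in each genotype, as had 3344 of the 12153 genes in WT/WT mice and 2326 in 304Q/304Q mice. Jak1 and Tyk2 had log2 differences of −0.08 and −0.18 with age in WT/WT mice and of 0.03 and −0.13 in 304Q/304Q mice. The medians of the 8 were −0.00 in WT/WT mice and 0.06 in 304Q/304Q ones. Of the 8 negative regulators tested none rose or fell with age in edgeR (2 with an unadjusted p under 0.05 in each genotype), whereas of 12 in the wider fit 2 rose in WT/WT mice and 1 in 304Q/304Q mice. Of all genes in the wider fit 4.63% and 2.84% rose. Usp18, which removes Isg15 from proteins and damps the receptor, rose by 1.62 log2 units in WT/WT mice and by 1.57 in 304Q/304Q ones, and the phosphatase Ptpn6 rose by 0.81 in WT/WT mice (adjusted p = 0.0474 by edgeR). Pias1, an inhibitor of STAT signalling, was higher in 304Q/304Q mice at 12 months by 0.30 (adjusted p = 0.0152 by edgeR), and did not pass once the choroid-rich libraries were left out.

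Of 11 other STAT and IRF genes tested, 3 rose with age in each genotype, where 6.08% of all genes rose in WT/WT mice and 3.08% in 304Q/304Q mice. Stat6, which serves interleukin-4 rather than interferon signals, rose by 0.42 log2 units in WT/WT mice and by 0.78 in 304Q/304Q mice. The co-repressor Irf2bp1 rose by 0.32 and 0.27, and Irf2bpl by 0.33 in WT/WT mice. Between the genotypes at 12 months 12.5% of all genes passed in either direction. Lower with the 304Q alleles at that age were Irf3 (−0.36, adjusted p = 0.00206 by edgeR), Irf2bp2 (−0.46) and Irf2bpl (−0.43). Without the choroid-rich libraries, which leaves 2 WT/WT and 3 304Q/304Q mice of 12 months, none of the latter passed, and with age 0 passed in WT/WT mice and 2 in 304Q/304Q mice, Stat6 among them. Among 16 sensors of foreign nucleic acid and their adaptors, the RNA sensors Ifih1 (1.14) and Ddx58 (0.76) and the Toll-like receptor chaperone Unc93b1 (0.68) rose in WT/WT mice, and Ddx58 (0.82) in 304Q/304Q mice, where without those libraries none passed. With all libraries 3 and 1 of the 16 thus rose, beside 6.08% and 3.08% of all genes.

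Other targets, on lists that were also chosen with earlier results of these data known, rose with the 9 genes. Of 31 further type I interferon targets tested, 11 rose and none fell with age in each genotype, 7 of them in both, with median log2 differences of 0.36 in WT/WT mice and 0.34 in 304Q/304Q ones. In the wider fit these were 16 and 18 of 57, 11 of them in both genotypes. Of all genes, 6.08% rose in WT/WT mice and 3.08% in 304Q/304Q mice, and 4.63% and 2.84% did in the wider fit. Lgals3bp, a secreted galectin ligand, had 199 ± 46.9 normalised counts in WT/WT mice of 2 months and 530.0 ± 52.2 in those of 12 months (SD, n = 5), a rise of 1.41 log2 units, and rose by 1.30 in 304Q/304Q mice. Ifi27 rose by 1.21 and 0.87. Ifit3b rose by 1.20 and 1.23, and the ubiquitin ligase Trim25, which acts on Ddx58, by 0.88 and 0.73. Ifit2 rose by 0.68 and 0.88. Xaf1 (0.93) and Parp9 (0.71), which overlaps Dtx3l, passed in WT/WT mice, and Rnf213 (0.74) in 304Q/304Q mice. Without the choroid-rich libraries 7 and 8 of the 31 rose, and the share of all genes in that fit is not given here. Parp12 was higher in 304Q/304Q mice at 12 months by 0.39 (adjusted p = 0.0301 by edgeR), which was lost without those libraries.

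Genes on the list of interferon-gamma targets rose as well, 9 of 15 tested in WT/WT and 10 of 15 in 304Q/304Q mice, 9 of them in both. Of all genes tested, 6.08% and 3.08% rose. In the wider fit 12 and 15 genes of the list rose, 11 of them in both genotypes, where 4.63% and 2.84% of all genes did. The median log2 differences of the 15 tested in the narrower fit were 0.46 and 0.65. The GTPases Irgm1 (1.34 in WT/WT mice and 1.19 in 304Q/304Q ones) and Irgm2 (0.88 and 0.65), the class I antigen presentation genes H2-K1 (0.90 and 0.72), B2m (0.63 and 0.67) and Tap2 (0.80 and 1.06) and the class II chaperone Cd74 (0.75 and 1.15) were among them, and Gbp3 rose by 0.66 in 304Q/304Q mice. Without the choroid-rich libraries 8 and 6 of the 15 rose, and the share of all genes in that fit is not given here. At 12 months Cd74 was higher with the 304Q alleles by 0.73 (adjusted p = 0.0256 by edgeR), the only one of the 15 to pass in that comparison, and not without those libraries. Of all genes, 12.5% passed in that comparison with all libraries.

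**Figure D4:**
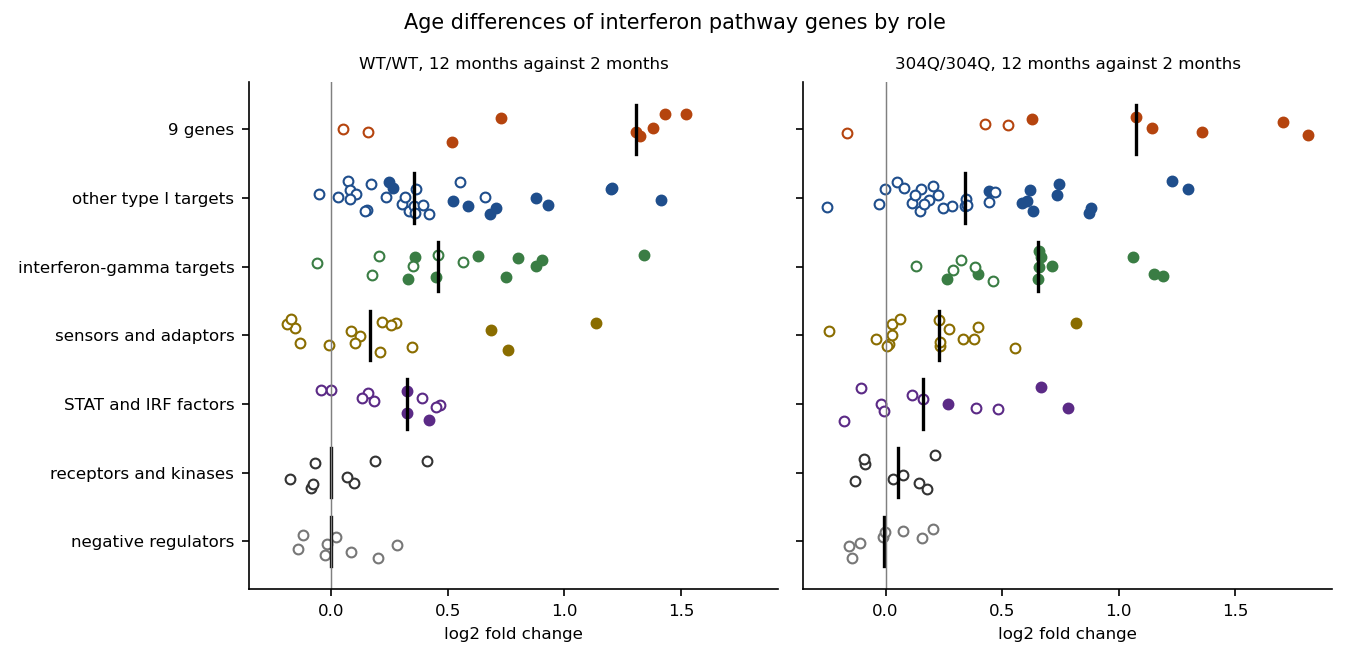
Log2 differences between 12 and 2 months (x axis) of interferon pathway genes by role (y axis) in WT/WT and 304Q/304Q mice. Each point is a gene, filled where it passed an adjusted p of 0.05 in edgeR, and black lines are medians. The 9 genes include Bst2 and Isg15 from the wider fit. The other lists show genes of the narrower fit only, so the negative regulators Usp18 and Ptpn6, which passed in the wider fit, are not drawn. Points for targets extend to the right in both panels, whereas the receptors, kinases and negative regulators drawn are unfilled points around 0.

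Markers of microglia moved with the age of the mice too. The 12 markers summed to 2154 ± 161 normalised counts in WT/WT mice of 2 months and 2094 ± 70.2 in 304Q/304Q mice of that age, and to 3150 ± 237 and 3444 ± 351 at 12 months (SD, n = 5), and no mouse of 12 months lay below 2879 or of 2 months above 2356. In each genotype 6 of the 10 tested rose and none fell, C1qa by 0.75 and 1.29 and C1qc by 0.993 and 1.003 log2 units in WT/WT and 304Q/304Q mice. Of all genes tested, 6.08% and 3.08% rose. In the wider fit, which held all 12, Fcrls fell by 0.81 in WT/WT mice (adjusted p = 0.0281 by edgeR) and had a difference of 0.33 in 304Q/304Q mice (adjusted p = 0.484 by edgeR). Markers of granule cells summed to 91850 ± 2563 normalised counts in WT/WT mice of 2 months and 77160 ± 3105 at 12 months, without overlap, and to 84300 ± 5762 and 75680 ± 4360 in 304Q/304Q mice, with overlap. Of these 6 markers 3 fell with age in WT/WT mice and 1 in 304Q/304Q mice. Of 5 Purkinje cell markers 2 rose in WT/WT mice and 4 fell in 304Q/304Q mice, and of 8 markers of myelinating oligodendrocytes 3 and 5 fell. The markers of endothelium stayed between 3143 and 3791 in all mice and those of pericytes between 3466 and 4474. Those of lymphocytes summed to at most 42.1 normalised counts per mouse and those of monocytes, neutrophils and border macrophages to at most 128. Blood markers summed to 2806 ± 699 normalised counts in WT/WT mice of 12 months and to 1478 ± 82.9 in 304Q/304Q mice of that age. Markers of astrocytes and Bergmann glia summed to 52630 ± 3077 and 47840 ± 1533 in WT/WT mice of 2 and 12 months, and to 50470 ± 3105 and 44950 ± 1188 in 304Q/304Q mice. Among them Slc1a3 fell in both genotypes (−0.14 and −0.23 log2 units) and Aqp4 in WT/WT mice (−0.41). In 304Q/304Q mice Aldh1l1 (−0.29) and Gdf10 (−0.47) fell and Gfap rose (0.48). The part of microglia, astrocytes, neurons, oligodendrocytes and blood in the values of the interferon-response genes was not tested.

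Among the 12153 genes tested, 184 rose with age in both genotypes, 5 of the 9 genes included. Of 133 symbols among them with a promoter window, 13.5% held the response element core, and 11.7% of 128 without the 9 genes, against 3.45% of all tested genes. Interferon targets are themselves part of these genes, and no test was made of the shares.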

How the data were processed

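Cerebellar RNA of 20 male mice (5 per genotype and age) was analysed from the whole-number counts per gene that the authors deposited, with no normalization. They prepared stranded polyA libraries, aligned the reads with STAR (2.4.5b per the labels) to GRCm38 and counted them with Rsubread, whose strand setting is not given in the sources used here. Each column was matched to 1 mouse by name. Library totals of 11385380 to 27636687 counts gave a common biological coefficient of variation of 0.113, and near 50 counts counting error adds to it.

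Counts were scaled with TMM in edgeR 4.0.16 (R 4.3.3), and 12153 genes that averaged 50 counts or more were tested by edgeR's quasi-likelihood method with 1 coefficient per group (4 in all), with Benjamini-Hochberg adjustment over all tested genes. The fit was checked on simulated counts. Log2 CPM used a prior count of 2. GENCODE M21 gave symbols for 29150 gene IDs.

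The members and gene lists were chosen with earlier results of these data known. Named are the 9 genes, up to 6 genes per list and comparison with the largest change among those that passed, ligands and receptors by level, and the genes most alike. Replicate numbers did not pair the mice. The median correlation of same-numbered mice was −0.04, and 6 of 30 pairs lay over 0.1. Alternatives were DESeq2 1.42.0, DESeq2 size factors, surrogate variables (sva 3.50.0), other filters, fits of the groups compared alone, the replicate block and each library left out. A correction for GC content and length and the fits without choroid-rich libraries were chosen after the data were seen.

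The ligand genes other than Ifnab and Ifnz, and Trex1, Ifi44l and Ido1, were not analysed here. Some genes of the lists are counted but not reported here by name.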

Additional observations from a re-analysis of the deposited data

Results flagged for a closer look

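In WT/WT mice of 2 months, replicate 3 had 140.0 normalised counts of Oasl2 and stood apart from the other 4 mice of its group, which had 49.1 to 68.0, with a gap of 0.792 of the group's range. It was the 1 sample set apart among 36 groups of 5 mice checked (9 genes in 4 groups), where chance sets apart about 5% of groups. The same mouse was the highest of its group for Stat2 (1627), Ifit1 (70.0), Ifit3 (227) and Isg15 (29.8) and not for Irf7, Irf9, Ifitm3 or Bst2.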

How the results depend on the processing

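The number of members that rose with age kept within 1.5 times its value under all alternatives but 1, the limit of 50 counts in every library, under which 4 members could be tested and 3 rose in WT/WT mice and 2 in 304Q/304Q ones. Among the genotype comparisons, surrogate variables called 4 members at 12 months in edgeR and 2 in DESeq2, and the cause was not tested. With 1 library left out, 5 to 6 of the 7 tested members rose in WT/WT mice and 4 to 5 in 304Q/304Q ones (5 to 7 and 4 to 6 of the 9 in the wider fit), and 0 passed in the genotype comparisons and the interaction. Replicate numbers gave no pairing, and a replicate block left 6 and 5 members with age and 0 in the other comparisons, the counts without it. The calls of single members that changed are given with each gene in the report.

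Log2 values that changed sign were those of comparisons a gene did not pass. With surrogate variables in edgeR and DESeq2, Irf7 had −0.18 and −0.17 between the genotypes at 12 months and −0.29 and −0.28 for the interaction, and Oasl2 had −0.11 in both between the genotypes at 2 months. Without the choroid-rich libraries the interaction was −0.11 for Irf7 and 0.21 for Irf9, and the age difference in WT/WT mice was −0.00295 for Stat2 and −0.11 for Isg15. Ifitm3 at 12 months between the genotypes had 0.00163 with DESeq2 size factors, 0.0016 with the DESeq2 Wald test, 0.000364 with only the groups compared and 0.10 with the GC and length trend removed, which gave 0.0346 for its interaction. With 1 library left out, values ran from −0.00127 to 0.0886 for Stat2 with age in WT/WT mice, from −0.20 to 0.0476 for the interaction of Irf9, and from −0.26 to 0.0725 for that of Ifit1. Between the genotypes at 2 months they ran from −0.29 to 0.0117 for Ifit1, from −0.027 to 0.15 for Ifit3, from −0.022 to 0.22 for Ifitm3 and from −0.12 to 0.37 for Oasl2. For Ifitm3 they ran from −0.0822 to 0.0459 at 12 months and from −0.22 to 0.0185 for the interaction. Counting error limits Isg15 and Bst2 most, with 8 to 27 and 5 to 69 raw counts per library.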
